A study of Mus musculus with 12 samples.

Results

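The mouse mitochondrial genome carries 37 genes, and these were followed across 12 RNA sequencing libraries of mouse brain cells. The members are all entries of the deposited expression table that stand on chromosome MT, 37 of 55862 entries. They comprise 13 mRNAs, 2 rRNAs and 22 tRNAs, with 28 genes on the plus strand and 9, namely mt-Nd6 and 8 tRNAs, on the minus strand. All libraries came from C57BL/6 mice, with brain as the stated tissue, and no genetic change is named. The AST group held astrocytes at 0 days of incubation, the negative control of the design, and the A-iSC group held cells of 3D spheres after 5 days of incubation. The P56-NSC and P0-NSC groups were brain-derived cells used as positive controls, which the sample titles call NSC and the protocol calls NPC. In these titles P56 and P0 are read as adult and newborn age, so these groups also differ in the age of the animals. Each group had 3 libraries, and the labels do not say whether these came from separate cultures or animals, so p-values reflect no more than how these libraries scatter, possibly for technical reasons.

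Mitochondrial DNA is copied and transcribed inside the organelle by its own nucleus-encoded enzymes. Both strands are transcribed as long polycistronic RNAs, which are cut at the tRNAs into rRNAs and mRNAs. The mRNAs encode membrane subunits of respiratory complexes I, III and IV and of the ATP synthase, while every other subunit and every ribosomal protein of the organelle is made from nuclear genes. In the brain, neurons depend heavily on this respiratory chain.

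Levels are the authors' FPKM values (fragments per kilobase of gene, scaled to a common sequencing depth), a scale on which genes of different length can be compared. Multiplying by gene length gave whole reads, within 0.01 of a read, for 100% of values, 17077780 to 24452419 per library, of which 501469 to 3804076 lay on mitochondrial genes. Marker genes set limits on what the groups can stand for. The summed FPKM of 8 oligodendrocyte markers was 10970 to 12510 in P56-NSC and 15.4 to 76.1 in the other groups, and that of 10 neuron markers was 1318 to 1803 against 11.9 to 224.9. The 6 progenitor markers summed to 150.6 to 166.7 FPKM in P56-NSC, below AST (2267 to 3105), and 8 astrocyte markers summed to 100.7 to 114.8 in AST, below every other group. AST 2, A-iSC 1 and A-iSC 2 stood apart from the other libraries of their groups: across genes, their deviation from the group mean ran against gene length (Spearman's rho -0.45, -0.281 and -0.233), while that of AST 1, AST 3 and A-iSC 3 ran with it (0.361, 0.385 and 0.328).

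Mitochondrial genes are packed so tightly that some overlap, and reads from the shared bases could belong to either gene. The following sequences, from GENCODE M21 on the build GRCm38, show in capitals the 3 longest of 4 overlaps between mRNAs. The end of mt-Atp8 (chromosome MT, 7766 to 7969) shares 43 bases with the start of mt-Atp6 (7927 to 8607), and the end of mt-Nd4l (9877 to 10173) shares 7 bases with mt-Nd4 (10167 to 11544). The ends of mt-Nd5 (11742 to 13565) and mt-Nd6 (13552 to 14070) share 14 bases on opposite strands, and the library kit does not mark strand. In the remaining overlap mt-Atp6 and mt-Co3 share 1 base, at 8607.
mt-Atp8: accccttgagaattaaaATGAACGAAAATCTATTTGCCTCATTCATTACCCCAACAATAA
mt-Atp6: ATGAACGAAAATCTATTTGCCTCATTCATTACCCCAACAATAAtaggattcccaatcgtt
mt-Nd4l: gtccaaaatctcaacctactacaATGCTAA
mt-Nd4: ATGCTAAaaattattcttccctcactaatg
mt-Nd5: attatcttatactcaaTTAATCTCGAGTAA
mt-Nd6: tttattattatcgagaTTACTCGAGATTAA

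A second kind of ambiguity comes from copies in the nuclear genome. On chromosome 1, 7 annotated pseudogenes match mitochondrial mRNAs almost letter for letter. Gm10222 (24612407 to 24612700, minus strand) matched mt-Nd4l at 294 of 294 bases, Gm28661 matched mt-Co2 at 681 of 681 bases, Gm10925 matched mt-Atp6 at 678 of 678, Gm28437 matched mt-Co3 at 783 of 783 and Gm28439 matched the first part of mt-Nd4 at 876 of 876. Gm28438 (chromosome 1, 24612775 to 24613119, minus strand) differed from mt-Nd3 at 1 of 345 bases and Gm29216 (24615706 to 24616197, minus strand) from mt-Co1 at 1 of 483. Counted from the start of the mitochondrial gene, with the mitochondrial base named before the position and the copy's base after it, these differences are T3C and A1066T. Copies on chromosome 2 were less alike: Gm13340 matched mt-Co1 at 1508 of 1545 bases and Gm13339 matched the last part of mt-Nd2 at 493 of 510. The stretches around T3C and A1066T are shown with the differing base in capitals. A read that lies wholly within the matched stretch of such a pair must cover this letter to be placed.
mt-Nd3: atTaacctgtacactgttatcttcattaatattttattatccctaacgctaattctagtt
Gm28438: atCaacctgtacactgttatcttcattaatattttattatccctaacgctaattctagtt
mt-Co1: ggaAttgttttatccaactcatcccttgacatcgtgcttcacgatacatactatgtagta
Gm29216: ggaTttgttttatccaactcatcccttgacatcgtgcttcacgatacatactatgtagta

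Mitochondrial genes took a far larger part of the reads in P56-NSC than in the other groups. Their share was 2.94%, 4.70% and 3.17% of all reads in AST 1, 2 and 3, and 7.03%, 5.49% and 3.05% in A-iSC. It was 16.5%, 17.6% and 16.98% in P56-NSC, with 3.67%, 4.97% and 5.55% in P0-NSC. No P56-NSC library overlapped any other library, whereas AST, A-iSC and P0-NSC overlapped one another. The mean was 17.1% ± 0.549 in P56-NSC against 3.60% ± 0.955 in AST (SD, n = 3 each), a 4.73-fold difference, with an exact two-sided permutation p of 0.1, the smallest that 3 against 3 allows, and 0.2 after Benjamini-Hochberg adjustment over 6 comparisons. A-iSC at 5.19% ± 2.005 (exact permutation p = 0.3) and P0-NSC at 4.73% ± 0.964 (exact permutation p = 0.2) were not separated from AST. The libraries that stood apart moved with this share: it was 4.70% to 7.03% in AST 2, A-iSC 1 and A-iSC 2 and 2.94% to 3.17% in AST 1, AST 3 and A-iSC 3. In such bulk samples, fewer cells rich in mitochondria and less mitochondrial RNA per cell cannot be told apart.

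**Figure D1:**
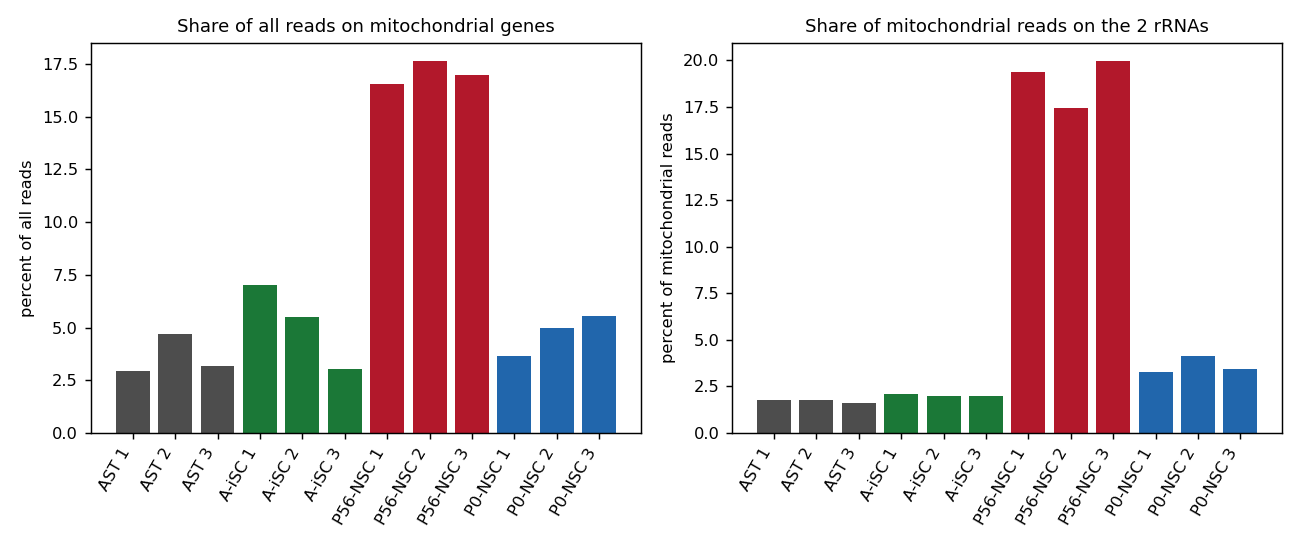
Left, percent of all reads that lay on the 37 mitochondrial genes, and right, percent of mitochondrial reads that lay on the 2 rRNAs, with 1 bar for each of the 12 libraries. P56-NSC libraries stand at 16.5% to 17.6% on the left and 17.4% to 20.0% on the right, above all others.

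The most and the least abundant mRNAs were the same in all libraries. mt-Co1, the subunit of complex IV where oxygen is reduced, ranked highest of the 13 mRNAs in 12 of 12 libraries. mt-Cytb, the only complex III subunit encoded here, ranked 2 and mt-Nd1 of complex I ranked 3 in each. mt-Co1 was also the most abundant of all 55862 entries in every library except A-iSC 3, where it ranked 2. Of the 10 most abundant entries of a library, 9 were mitochondrial in each P56-NSC library, 4 to 6 in AST, 3 to 7 in A-iSC and 6 to 7 in P0-NSC. At the other end, mt-Atp8 ranked 13 of 13 in every library. The 6 mRNAs from mt-Co2 to mt-Nd4l, which follow each other on the genome, had mean levels of 12.6 to 451 FPKM over the 12 libraries, and the other 7 had 2740 to 20265 FPKM.

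**Figure D2:**
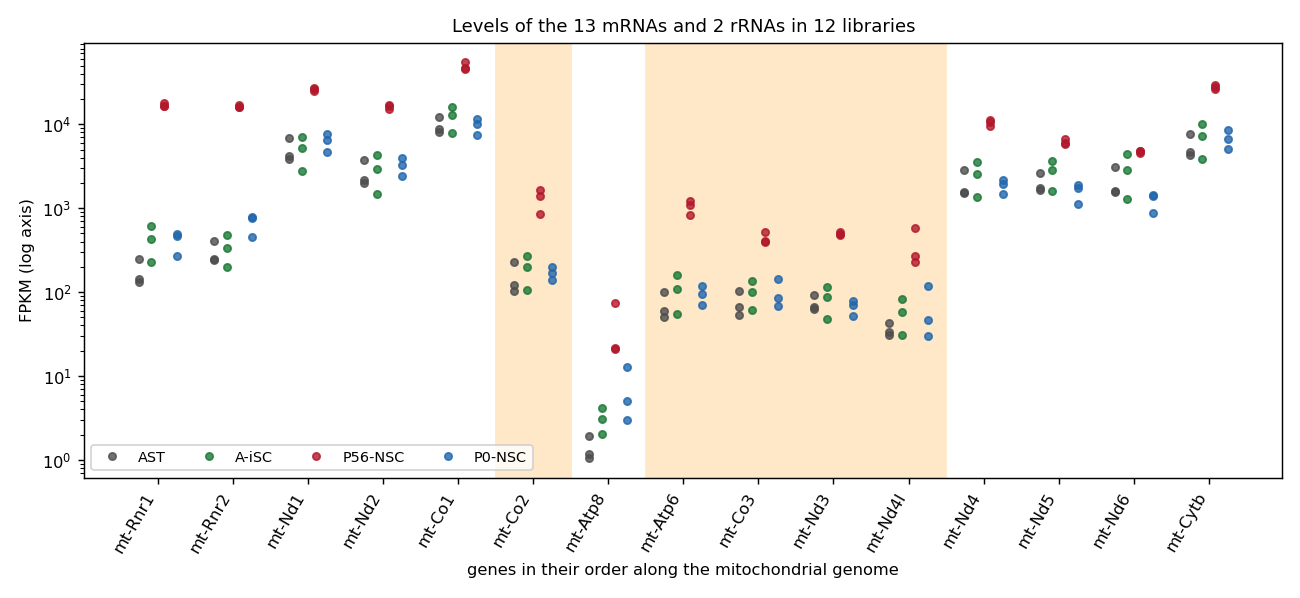
FPKM (log axis) of the 13 mRNAs and 2 rRNAs in their order along the genome, 1 point per library, with shading on genes that share over 90% of their 50-base windows with other annotated transcripts. P56-NSC points lie above all other points for each of the 15 genes, and levels drop from mt-Co2 to mt-Nd4l in every group.

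The tests compared groups gene by gene with limma on log2(FPKM + 1) over 15747 genes, and a gene was called at an adjusted p below 0.05. Of the 37 members 33 passed the level filter, all 13 mRNAs, both rRNAs and 18 tRNAs. In P56-NSC against AST, 31 members were higher and 0 lower, where 37.1% and 37% of all tested genes were called higher and lower, and the members' median log2 change was 2.69 against -0.00 for all genes. In P56-NSC against P0-NSC, 32 were higher and 0 lower (background 35.3% and 33.9%), with a median of 2.35. In A-iSC against P56-NSC, 30 were lower and 0 higher (background 31.3% lower and 31.5% higher), with a median of -2.24. The comparisons that leave P56-NSC out gave few calls: 4 up and 0 down in A-iSC against AST (background 28.1% and 30.8%), 9 higher and 2 lower in P0-NSC against AST (35.9% and 38.3%), and 5 higher and 6 lower in A-iSC against P0-NSC (32.6% and 34.7%). As shares of the 33 members, these counts lie below the background in both directions. Comparisons with a group in common share its libraries, so their counts are not independent.

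The authors' scaling between libraries bears on these counts. When the recovered reads were scaled by each library's total instead, the median change of all genes moved from -0.00 to -0.24 in P56-NSC against AST and from 0.00 to -0.45 in P56-NSC against P0-NSC, while the members' medians were 2.35 and 1.74, with 29 and 28 members higher and 0 lower. Under that scaling the part of all calls that went upward changed from 50.1% to 38.7%, and from 51.0% to 27.3%, in these comparisons. It changed from 47.7% to 60.9% in A-iSC against AST, from 48.4% to 58.7% in P0-NSC against AST and from 50.1% to 73.4% in A-iSC against P56-NSC. Leaving out mitochondrial reads from the totals gave shares of 62.5%, 59.4% and 67.2% in these last comparisons and 33.9% in P56-NSC against P0-NSC.

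**Figure D3:**
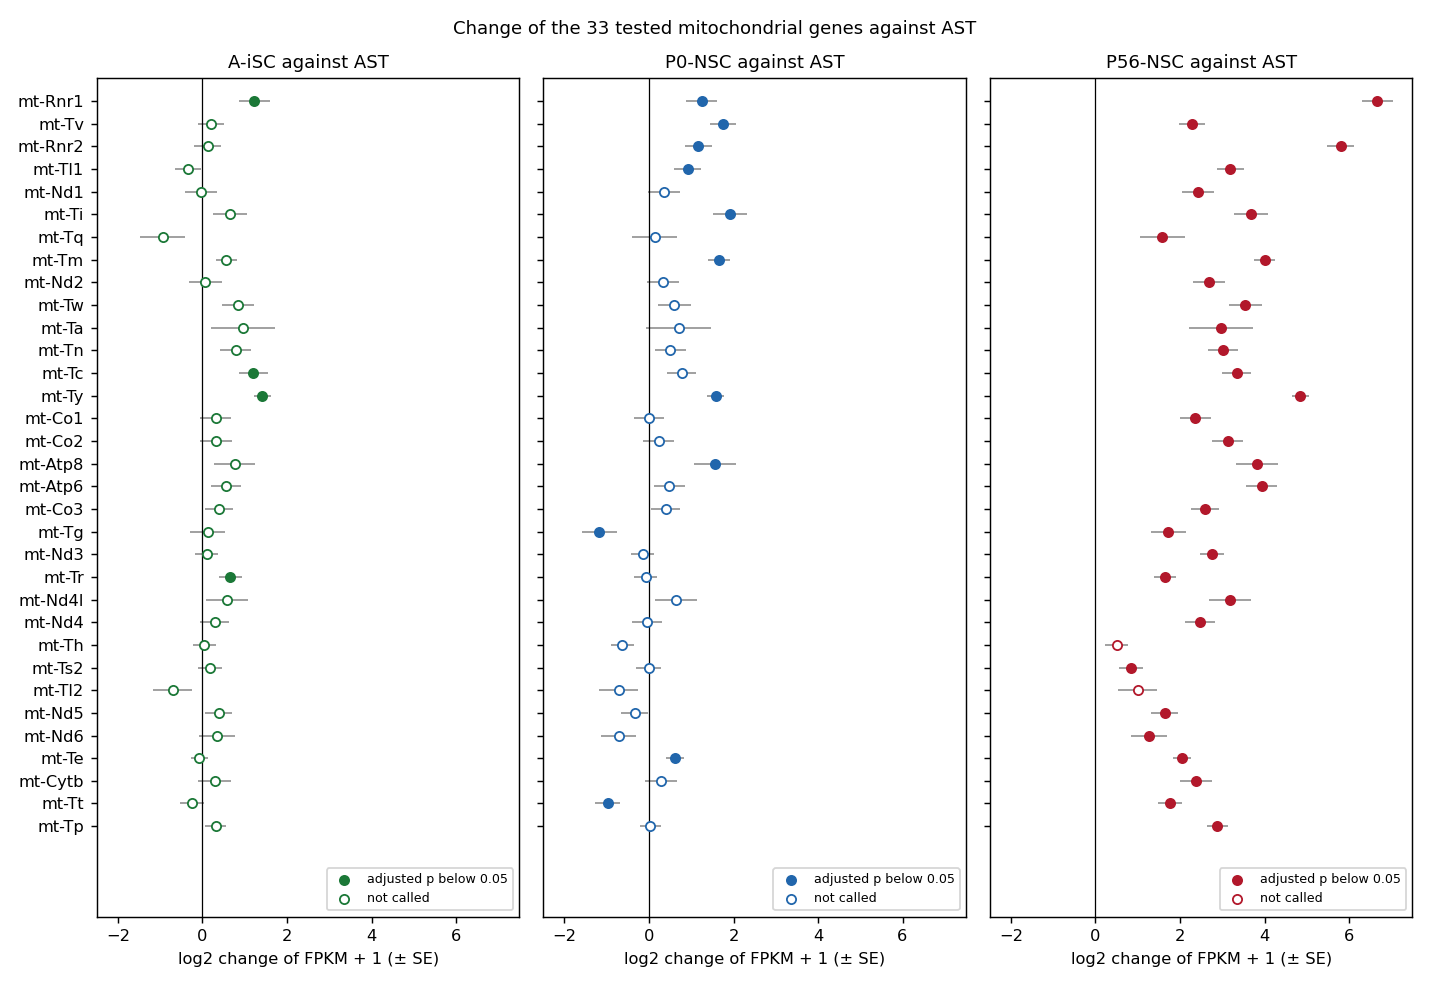
Log2 change (± SE) of FPKM + 1 for the 33 tested members in A-iSC, P0-NSC and P56-NSC, each against AST, in genome order, with filled points for adjusted p below 0.05. Filled points number 4, 11 and 31, and mt-Rnr1 and mt-Rnr2 lie farthest to the right in P56-NSC.

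The rRNAs of the mitochondrial ribosome had the highest log2 changes of FPKM + 1 of the 33 tested members between P56-NSC and AST. Whether poly(A) RNA was selected, or rRNA removed, before sequencing is not stated, and its part in these levels was not tested. mt-Rnr1, the small-subunit rRNA (chromosome MT, 70 to 1024), was at 132.1, 249.0 and 142.5 FPKM in AST and at 618.3, 431.3 and 226.6 in A-iSC. It was at 16682, 16699 and 18214 in P56-NSC and at 270.1, 499.2 and 470.7 in P0-NSC. The lowest P56-NSC library was thus far above the highest of any other group, and P0-NSC did not overlap AST, while A-iSC 3 lay below AST 2. mt-Rnr1 was 98.5-fold higher in P56-NSC than in AST (log2 change 6.67 ± 0.36 SE, limma adjusted p = 7.07e-09). It was higher in A-iSC (1.22 ± 0.36, adjusted p = 0.0121) and in P0-NSC (1.25 ± 0.36, adjusted p = 0.00814) as well. The A-iSC call ended without AST 1 (limma adjusted p = 0.0505) or without A-iSC 1 (adjusted p = 0.0524), with only the 2 groups compared in the fit, and among AST 1, AST 3 and A-iSC 3 (highest adjusted p of 26 alternatives 0.0869). The P0-NSC call ended when AST 2 alone stood for AST (adjusted p = 0.108).

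mt-Rnr2, the large-subunit rRNA (1094 to 2675), was at 250.6, 401.0 and 243.1 FPKM in AST and 476.9, 335.4 and 198.0 in A-iSC, which overlapped. It was at 15912, 16037 and 16813 in P56-NSC and at 456.1, 787.3 and 768.4 in P0-NSC, both clear of AST. The difference from AST was 54.5-fold in P56-NSC (log2 change 5.80 ± 0.32, limma adjusted p = 8.26e-09) and 2.25-fold in P0-NSC (1.16 ± 0.32, adjusted p = 0.00598, and 0.0838 when AST 2 alone stood for AST). Together the rRNAs took 17.4% to 20.0% of mitochondrial reads in P56-NSC, 3.26% to 4.13% in P0-NSC, 1.96% to 2.11% in A-iSC and 1.62% to 1.75% in AST.

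The rRNAs also differed from each other between groups, in a ratio that no scaling between libraries can alter. The level of mt-Rnr1 over that of mt-Rnr2 was 0.527, 0.621 and 0.586 in AST, with 0.592, 0.634 and 0.612 in P0-NSC. It was 1.30, 1.29 and 1.14 in A-iSC and 1.05, 1.04 and 1.08 in P56-NSC. The former pair of groups overlapped, and each lay below A-iSC and P56-NSC, which did not overlap either. The mean ratio of A-iSC was 2.15 times that of AST (exact permutation p = 0.1, the smallest possible, and 0.126 after adjustment over 48 such ratio comparisons, chosen after values were seen).

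**Figure D4:**
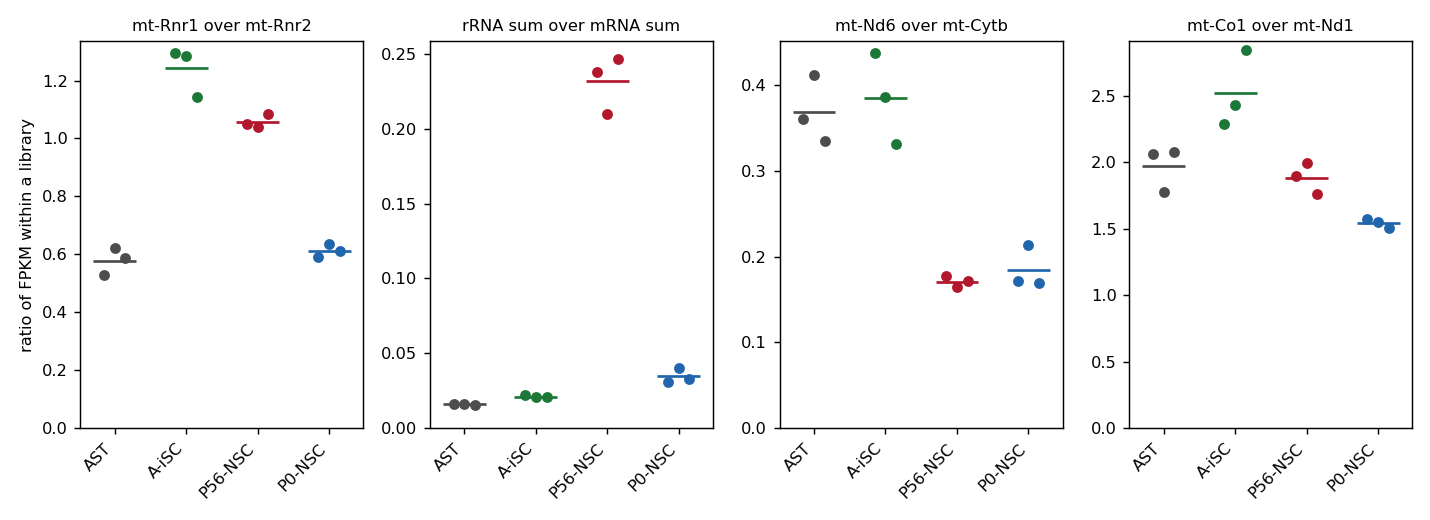
Ratios of FPKM within each library for 4 pairs or sums of members, 1 point per library and a line at the group mean. mt-Rnr1 over mt-Rnr2 is 1.04 to 1.30 in A-iSC and P56-NSC and 0.527 to 0.634 in AST and P0-NSC, and mt-Nd6 over mt-Cytb is 0.332 to 0.438 in AST and A-iSC and 0.164 to 0.214 in the NSC groups.

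Complex I, which takes electrons from NADH, has 7 mitochondrial mRNAs, mt-Nd1 to mt-Nd6 and mt-Nd4l, and all 7 were higher in P56-NSC than in AST. mt-Nd1 (2751 to 3707) was at 3899, 6920 and 4222 FPKM in AST and at 7126, 5264 and 2776 in A-iSC. It was at 24800, 27474 and 26085 in P56-NSC and at 4689, 6502 and 7758 in P0-NSC. P56-NSC was clear of the other 3 groups, which overlapped, and was 5.21-fold above AST (log2 change 2.43 ± 0.38, limma adjusted p = 8.96e-05). mt-Nd2 (3914 to 4951) gave 2.69 ± 0.38 (adjusted p = 4.17e-05), mt-Nd3 (9459 to 9806) 2.75 ± 0.28 (adjusted p = 1.88e-06), mt-Nd4l 3.19 ± 0.49 (adjusted p = 8.74e-05) and mt-Nd4 2.47 ± 0.35 (adjusted p = 4.19e-05). Their levels were 1991 to 3716, 62.8 to 92.1, 30.9 to 42.2 and 1519 to 2835 FPKM in AST and 15354 to 16826, 484.5 to 519.4, 229.5 to 573.5 and 9667 to 11272 in P56-NSC. Under quantile normalization the calls of mt-Nd1 (log2 change 0.33, adjusted p = 0.0593) and mt-Nd2 (0.43, adjusted p = 0.257) ended. That setting gives every library the same top values, and mt-Nd1 ranked 3 or 4 among all entries in every library. Its change there was thus limited in advance.

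The last complex I genes on the genome, mt-Nd5 and mt-Nd6, differed less. mt-Nd5 was at 1636, 2641 and 1759 FPKM in AST and 5836, 6674 and 5912 in P56-NSC, a 3.05-fold difference (log2 change 1.64 ± 0.32, limma adjusted p = 0.000604). It was at 3686, 2847 and 1606 in A-iSC and at 1125, 1887 and 1763 in P0-NSC, which overlapped AST. mt-Nd6, the only mRNA of the minus strand, was at 1575, 3139 and 1585 FPKM in AST and at 4407, 2835 and 1283 in A-iSC. It was at 4612, 4868 and 4848 in P56-NSC and at 882.2, 1415 and 1427 in P0-NSC. The P56-NSC libraries were still the highest 3, but A-iSC 1 came close to them, and A-iSC did not differ from P56-NSC at the threshold (log2 change -0.92 ± 0.42, limma adjusted p = 0.0731). It was called without A-iSC 1 (-1.32, adjusted p = 0.0136). P0-NSC lay below AST without overlap, but was not called (-0.71 ± 0.42, adjusted p = 0.141).

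mt-Nd6 was 2.27-fold higher in P56-NSC than in AST (log2 change 1.26 ± 0.42, limma adjusted p = 0.016). That call ended without AST 1 (adjusted p = 0.0587) or AST 3 (adjusted p = 0.0579), under total-read scaling, without a level filter, under quantile normalization and when AST 2 alone stood for AST (highest adjusted p 0.452). It was the single mRNA called between A-iSC and P0-NSC (1.06 ± 0.42, adjusted p = 0.0409). That call was lost in 13 of 26 alternatives, 8 of which left out a library (all but AST 1, AST 2, AST 3 and A-iSC 3, adjusted p 0.0541 to 0.170). Set against mt-Cytb, its neighbour on the other strand, mt-Nd6 was at a ratio of 0.361, 0.412 and 0.336 in AST, with 0.438, 0.386 and 0.332 in A-iSC. The ratio was 0.177, 0.164 and 0.172 in P56-NSC, with 0.172, 0.214 and 0.169 in P0-NSC. Both NSC groups lay below AST and A-iSC without overlap (exact permutation p = 0.1 for each pair), and mt-Nd5 over mt-Cytb was split the same way, at 0.346 to 0.415 in AST and A-iSC and 0.208 to 0.285 in the NSC groups.

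Complex III and complex IV, which pass electrons to oxygen, have 4 mitochondrial mRNAs. mt-Cytb (14145 to 15288) was at 4365, 7626 and 4723 FPKM in AST and at 10069, 7344 and 3865 in A-iSC. It was at 26054, 29629 and 28205 in P56-NSC, with 5137, 6626 and 8456 in P0-NSC, so that P56-NSC alone stood clear. The difference from AST was 5.02-fold (log2 change 2.37 ± 0.38, limma adjusted p = 0.000123). That call ended without a level filter (adjusted p = 0.0552) and under quantile normalization (log2 change 0.080, adjusted p = 0.575). mt-Co1 (5328 to 6872) was at 8056, 12296 and 8768 FPKM in AST and 16299, 12817 and 7897 in A-iSC. It was at 47105, 54740 and 46056 in P56-NSC, with 7376, 10065 and 11701 in P0-NSC, 5.08-fold higher in P56-NSC than in AST (2.37 ± 0.36, adjusted p = 7.78e-05). The mt-Co1 call also ended without a level filter (adjusted p = 0.173) and under quantile normalization (adjusted p = 1). Quantile normalization gives every library the same top values, and among all entries mt-Co1 ranked 1 or 2 and mt-Cytb 2 or 3. The loss of these calls under it was thus nearly fixed in advance. The spread of mt-Co1 within A-iSC, from 7897 to 16299 FPKM, covered the ranges of AST and P0-NSC.

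mt-Co1 and mt-Nd1 did not keep one ratio. The level of mt-Co1 over mt-Nd1 was 2.29, 2.43 and 2.84 in A-iSC, above AST (2.07, 1.78 and 2.08) and P56-NSC (1.90, 1.99 and 1.77), while P0-NSC (1.57, 1.55 and 1.51) was below all other groups without overlap. Each of these separations had an exact permutation p of 0.1, the smallest possible. mt-Co2 (7013 to 7696) was at 104.1, 227.0 and 120.9 FPKM in AST, 266.4, 198.6 and 105.2 in A-iSC, 1384, 1640 and 863.1 in P56-NSC, with 140.0, 167.8 and 198.3 in P0-NSC. mt-Co3 (8607 to 9390) was at 53.8, 103.7 and 66.4 FPKM in AST, 135.1, 101.1 and 61.3 in A-iSC, 402.8, 520.8 and 393.1 in P56-NSC, with 68.0, 85.9 and 144.5 in P0-NSC. Only P56-NSC was clear of AST for these genes of complex IV core subunits, of which mt-Co2 takes electrons from cytochrome c, by 8.60-fold for mt-Co2 (log2 change 3.13 ± 0.37, limma adjusted p = 8.36e-06) and 5.88-fold for mt-Co3 (2.58 ± 0.33, adjusted p = 1.86e-05).

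The ATP synthase has 2 mitochondrial mRNAs, both for its membrane part. mt-Atp6 was at 50.3, 99.4 and 58.7 FPKM in AST and 161.2, 107.7 and 54.5 in A-iSC. It was at 818.7, 1082 and 1227 in P56-NSC, with 71.0, 95.7 and 118.0 in P0-NSC. With a 15.01-fold difference from AST (log2 change 3.93 ± 0.36, limma adjusted p = 9.50e-07), mt-Atp6 had the highest log2 change of FPKM + 1 of the 13 mRNAs in P56-NSC. Without the added 1 FPKM the order was the other way, since mt-Atp8 was 28.0-fold above AST (3.83 ± 0.49, adjusted p = 1.81e-05). The ratio of mt-Atp6 to mt-Cytb was 0.012 to 0.016 in the other groups and 0.031 to 0.044 in P56-NSC. mt-Atp8 rested on few reads: 4, 8 and 4 in AST, 17, 15 and 11 in A-iSC, 75, 241 and 73 in P56-NSC, with 14, 30 and 72 in P0-NSC. Its levels were 1.17, 1.93 and 1.06 FPKM in AST and 3.00, 5.05 and 12.8 in P0-NSC, where it was the single mRNA called against AST (log2 change 1.56 ± 0.49, limma adjusted p = 0.0129). The call ended without P0-NSC 3 (adjusted p = 0.0633), with voom on recovered reads (0.0559) and when AST 2 alone stood for AST (0.174). The A-iSC libraries, at 4.13, 3.09 and 2.01 FPKM, were also clear of AST, without passing the test (0.76 ± 0.49, adjusted p = 0.21).

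The tRNAs, which punctuate the long transcripts, ranged from 0 to 1554 FPKM in their means over 12 libraries. A tRNA of 59 to 75 bases is short for such a library, so that 1 read is worth 0.458 to 1.06 FPKM, and reads over it can also come from RNA that was not yet cut. mt-Tp (15356 to 15422), mt-Tc (5192 to 5257) and mt-Tn (5089 to 5159) had the highest means, 1554, 623 and 411 FPKM. All 3 are on the minus strand, as were 4 of the 5 highest tRNAs, and the strand of the reads cannot be told. mt-Tf and mt-Ts1 had 0 reads in all 12 libraries, which allows up to 3 reads, or 1.49 to 2.75 FPKM, in each. The sequences of the 3 highest tRNAs, and of mt-Ty and mt-Tr, which were called in A-iSC against AST as was mt-Tc, are shown with the anticodon in capitals.
mt-Tp: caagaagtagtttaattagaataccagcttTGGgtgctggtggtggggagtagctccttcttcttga
mt-Tc: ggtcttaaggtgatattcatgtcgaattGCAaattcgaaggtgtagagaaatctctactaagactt
mt-Tn: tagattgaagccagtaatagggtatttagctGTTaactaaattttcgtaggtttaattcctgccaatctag
mt-Ty: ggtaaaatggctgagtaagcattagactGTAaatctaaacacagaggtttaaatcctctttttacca
mt-Tr: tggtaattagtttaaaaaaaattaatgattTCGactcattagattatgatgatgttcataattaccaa

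The tyrosine tRNA separated all groups from AST. mt-Ty (5260 to 5326) was at 12.5, 11.8 and 10.5 FPKM in AST, 43.0, 26.4 and 30.1 in A-iSC, 317.3, 460.3 and 317.1 in P56-NSC, with 34.6, 44.6 and 31.4 in P0-NSC. No group overlapped AST, and A-iSC and P0-NSC overlapped each other. Against AST the log2 change was 1.42 ± 0.20 in A-iSC (limma adjusted p = 7.20e-05), 4.84 ± 0.20 in P56-NSC (adjusted p = 5.80e-10) and 1.58 ± 0.20 in P0-NSC (adjusted p = 1.54e-05), and these calls held under all 26 alternatives. The cysteine tRNA beside it, mt-Tc, was at 143.7, 210.7 and 137.1 FPKM in AST, 563.1, 411.0 and 218.2 in A-iSC, 1632, 1823 and 1472 in P56-NSC, with 176.8, 363.3 and 324.5 in P0-NSC. It was 2.43-fold higher in A-iSC (1.20 ± 0.34, adjusted p = 0.00996), although the lowest A-iSC library lay only just above the highest AST library. The call ended among AST 1, AST 3 and A-iSC 3 (adjusted p = 0.168).

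The proline tRNA mt-Tp was at 479.8, 802.3 and 503.1 FPKM in AST, 957.5, 710.6 and 551.7 in A-iSC, 3951, 4654 and 4245 in P56-NSC, with 488.7, 694.6 and 610.1 in P0-NSC. P56-NSC alone was clear, at 7.20 times AST (log2 change 2.88 ± 0.25, limma adjusted p = 4.62e-07). mt-Tn, the asparagine tRNA, was at 113.4, 183.4 and 106.2 FPKM in AST, 349.4, 244.7 and 133.4 in A-iSC, 1060, 1229 and 926.1 in P56-NSC, with 124.4, 276.7 and 186.1 in P0-NSC. Its log2 change against AST was 3.02 ± 0.36 in P56-NSC (adjusted p = 8.89e-06). mt-Tr, the arginine tRNA, was at 8.0 to 11.1 FPKM in AST and 9.9 to 21.9 in A-iSC, which overlapped, and its call in that comparison (0.66 ± 0.27, adjusted p = 0.0498) held in 8 of 26 alternatives. Leaving out any library except A-iSC 3, P0-NSC 2 or P0-NSC 3 ended it (adjusted p 0.0536 to 0.196).

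Of the 18 tested tRNAs, 16 were higher in P56-NSC than in AST, with mt-Th (log2 change 0.50 ± 0.27, limma adjusted p = 0.109) and mt-Tl2 (1.002 ± 0.46, adjusted p = 0.0667) not called. mt-Th, at 28.1 to 47.2 FPKM in AST and 41.7 to 62.3 in P56-NSC, mt-Ts2 (17.3 to 30.9 and 35.2 to 66.5) and mt-Tl2 (83.4 to 113.9 and 95.8 to 329.1) lie side by side between mt-Nd4 and mt-Nd5. They had the smallest log2 changes of all members in this comparison, 0.50 to 1.002. The highest tRNA change was that of mt-Ty (4.84), followed by mt-Tw, the tryptophan tRNA (3.55 ± 0.39, adjusted p = 4.26e-06), among those with more than 3 reads in AST. mt-Tm had 19, 26 and 19 reads in P56-NSC and 0, 0 and 1 in AST (adjusted p = 3.04e-08), and mt-Ti had 24, 17 and 20 against 0, 1 and 1 (adjusted p = 4.08e-06). mt-Tv had 3, 9 and 3 reads against 0 (adjusted p = 2.30e-05). For mt-Tv, 0 reads in AST allow up to 3, worth 2.14 to 2.59 FPKM, and the P56-NSC levels were 2.50, 8.13 and 2.64. The other calls with P56-NSC higher were mt-Tl1, mt-Tc, mt-Tn, mt-Ta, mt-Tp, mt-Te, mt-Tt, mt-Tg, mt-Tr, mt-Tq and mt-Ts2, at log2 changes of 0.85 to 3.34. Those of mt-Tq and mt-Ts2 ended without AST 3 (adjusted p = 0.0795 and 0.0849) or without P56-NSC 2 (0.0844 and 0.0917), and with those of mt-Ta and mt-Tg they ended when AST 2 alone stood for AST (0.0663 to 0.383). Further settings ended the call of mt-Tq (a pseudocount of 0.1, adjusted p = 0.0559) and that of mt-Ts2 (total-read scaling, 0.09998, and a length correction, 0.055). Against P0-NSC the call of mt-Ta also ended without P56-NSC 2 or P0-NSC 1 (adjusted p = 0.0545 and 0.0877), that of mt-Tq without either of these or P0-NSC 3 (0.0648 to 0.13) and that of mt-Ts2 without either of these (0.0909 and 0.0894).

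The 11 calls in P0-NSC against AST were mainly tRNAs and rRNAs. The direction of the tRNA calls depended on the length correction: 6 were higher and 2 lower without it, 4 higher and 7 lower with it. Besides mt-Ty, the leucine tRNA mt-Tl1 (log2 change 0.91 ± 0.32, limma adjusted p = 0.0204) and the glutamate tRNA mt-Te (0.62 ± 0.21, adjusted p = 0.0197) were higher. The valine, isoleucine and methionine tRNAs were called on few reads, so no fold is given. mt-Tv had 4, 5 and 4 reads in P0-NSC and 0 in each AST library (adjusted p = 0.000223), where the limit of 3 reads is worth 2.14 to 2.59 FPKM and the P0-NSC levels were 2.10 to 2.53. mt-Ti had 6, 10 and 9 reads against 0, 1 and 1 (adjusted p = 0.000944), and mt-Tm 4, 4 and 8 against 0, 0 and 1 (adjusted p = 9.04e-05). mt-Tl1, which lies next to mt-Rnr2, had 71.1, 162.6 and 107.5 FPKM in P0-NSC and 49.3, 70.4 and 52.4 in AST, without overlap, and its call ended without AST 1, AST 3 or P0-NSC 2 (adjusted p = 0.0652, 0.0562 and 0.0989), when AST 2 alone stood for AST (0.245) and with a length correction (highest of these, 0.445). mt-Te lost its call without AST 3, P0-NSC 2 or P0-NSC 3 (adjusted p = 0.0631, 0.0909 and 0.0646) and when AST 2 alone stood for AST (0.159), and its log2 change turned to -0.07 with a length correction.

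The glycine tRNA went the other way, while the threonine tRNA was called on so few reads that no direction is claimed for it. mt-Tg was at 5.79, 6.57 and 2.67 FPKM in P0-NSC and 10.5, 14.5 and 11.1 in AST (log2 change -1.17 ± 0.42, limma adjusted p = 0.023), and mt-Tt, with 0, 1 and 1 reads in P0-NSC and 2 in each AST library, was also called (adjusted p = 0.00863, and 0.1 when AST 2 alone stood for AST). The mt-Tg call ended without AST 2 (adjusted p = 0.0729, also with A-iSC 3 left out) or without P0-NSC 3 (0.104), when AST 2 alone stood for AST (0.0778), without a level filter and under scaling by total reads or by reads outside the mitochondrial genes. Against A-iSC, the tRNAs mt-Tl1, mt-Ti, mt-Tm and mt-Te were higher in P0-NSC, at log2 changes (A-iSC minus P0-NSC) of -1.27 to -0.69, and mt-Tg, mt-Tr and mt-Th were lower, at 0.68 to 1.29. mt-Tv was called with 0, 0 and 1 reads in A-iSC, and mt-Tt with 2, 1 and 3. Of these calls, mt-Te ended without P0-NSC 2 (adjusted p = 0.0611), mt-Tg without A-iSC 1 or P0-NSC 3 (0.0694 and 0.0747), mt-Tr without A-iSC 1, A-iSC 2, P0-NSC 1 or P0-NSC 2 (0.0731 to 0.117), mt-Th without any of 6 libraries (0.0515 to 0.172; AST 2, A-iSC 1, A-iSC 2, P56-NSC 1, P0-NSC 1 and P0-NSC 3) and mt-Tt without any of 6 (0.0502 to 0.158; AST 3, A-iSC 1, A-iSC 3, P56-NSC 1, P0-NSC 1 and P0-NSC 2). Settings that left out no single library also ended calls of mt-Te, mt-Tg, mt-Ti, mt-Tm, mt-Th, mt-Tr, mt-Tt and mt-Tv here (adjusted p 0.0508 to 0.697). mt-Rnr2 was lower in A-iSC than in P0-NSC (-1.04 ± 0.32, adjusted p = 0.0129), while mt-Rnr1 was not called (-0.02 ± 0.36, adjusted p = 0.960). The mt-Rnr2 call ended without A-iSC 3 (adjusted p = 0.051) or without P0-NSC 2 (0.053).

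The count of 4 members in A-iSC against AST depended on which libraries were compared. Without AST 2 and A-iSC 3, the library of each group that went against the others in its length trend, 17 members were higher and 0 lower, 9 of them mRNAs. The remaining AST libraries all ran with gene length and the remaining A-iSC libraries all ran against it. Group and length trend therefore cannot be told apart in that setting. Leaving out AST 1 or A-iSC 1 gave 2 members. Within the libraries of like length trend, 4 were higher and 1 lower when AST 2 was set against A-iSC 1 and 2 (median log2 change 0.17), and 2 were higher and 0 lower when AST 1 and 3 were set against A-iSC 3 (median -0.01). A lone library in these fits was assumed to vary like the other groups. In P0-NSC against AST the members' median log2 change was -0.16 with AST 2 alone and 0.62 with AST 1 and AST 3. When only AST 2 was left out of the main fit, 10 members were higher and 1 lower, against 9 and 2 with all libraries.

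The low levels of the genes from mt-Co2 to mt-Nd4l lay beside their sequence copies. A window of 50 bases was counted as shared when it stood unchanged in any of 141730 other GENCODE M21 transcripts. The share of windows was 100% for mt-Co2, 99.5% for mt-Atp6, 99.9% for mt-Co3, 98.0% for mt-Nd3 and 98.8% for mt-Nd4l, and these 5 had mean levels of 129 to 451 FPKM. It was 62.2% for mt-Nd4, 51.1% for mt-Co1, 8.19% for mt-Nd2, 7.61% for mt-Nd5 and 0% for mt-Nd1, mt-Nd6 and mt-Cytb, whose means were 2740 to 20265 FPKM. mt-Atp8 broke the pattern, with 0% shared and the lowest mean, 12.6 FPKM. mt-Rnr1 and all tRNAs had 0% shared windows and mt-Rnr2 1.04%. Nuclear sequence outside annotated transcripts was not searched, so 0% does not mean that a gene has no copy. The stretch of chromosome 1 between Gm10925 and Gm28661, the copies of mt-Atp6 and mt-Co2, was among the sequence not searched. The last 43 bases of mt-Atp8 are also the start of mt-Atp6 and so stand in Gm10925, but they are too short for a window. The sources used here do not state how reads with several equal placements were treated, and the part of shared sequence in these levels was not tested.

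**Figure D5:**
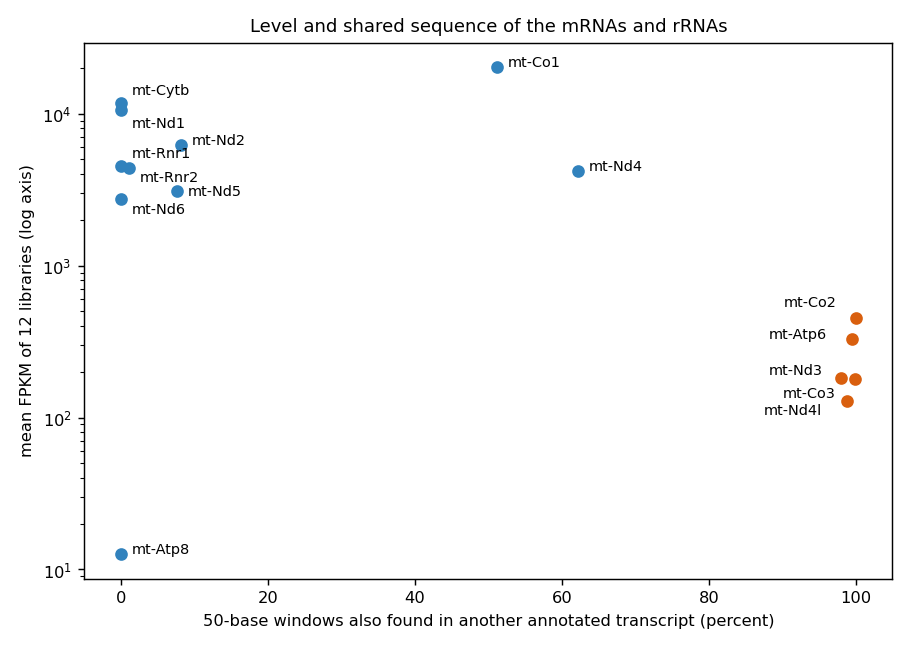
Mean FPKM over 12 libraries (log axis) of the mRNAs and rRNAs against the percent of their 50-base windows that stand in another annotated transcript, 1 labelled point per gene, orange above 90%. The 5 genes above 90% lie between 129 and 451 FPKM, and mt-Atp8 is the single gene below them.

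Of 14 genes in the table that share such a window with a member, 9 had a mean of at least 1 FPKM in some group. These 9 carried reads in every library and were highest in the 3 P56-NSC libraries, while 3 of the others were at 0 throughout. Gm10925, the copy of mt-Atp6, was at 47.8 to 96.2 FPKM in AST, 52.3 to 141.2 in A-iSC, 437.3 to 501.2 in P56-NSC and 67.6 to 144.6 in P0-NSC. mt-Atp6 over Gm10925 was 0.98 to 1.05 in AST, 0.97 to 1.14 in A-iSC and 0.82 to 1.05 in P0-NSC, close to equal, and 1.87 to 2.45 in P56-NSC. Gm28661, the copy of mt-Co2, was at 47.8 to 92.0 FPKM in AST and 365.9 to 505.7 in P56-NSC, and mt-Co2 was 2.15 to 4.22 times as high in all 12 libraries. Gm28437 (copy of mt-Co3), Gm28438 (mt-Nd3), Gm28439 (mt-Nd4) and Gm29216 (mt-Co1) were at 35.6 to 62.3, 6.57 to 14.4, 17.2 to 31.1 and 43.3 to 101.6 FPKM in AST and at 257.9 to 323.8, 56.8 to 72.8, 152.9 to 194.7 and 293.9 to 318.5 in P56-NSC. Gm10222 (mt-Nd4l) was at 15.2 to 26.5 FPKM in AST and 137.4 to 144.1 in P56-NSC, Gm13340 (mt-Co1) at 1.89 to 3.32 and 18.2 to 28.1, and Gm13339 (mt-Nd2) at 0.106 to 0.193 and 1.71 to 2.14. With such identity, counts of each copy and its mitochondrial partner are uncertain, and adding the reads of all 14 genes (a choice made after seeing the data) left the mean mitochondrial share at 17.15% in P56-NSC and 3.62% in AST.

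Few nuclear genes that act on the mitochondrial genome were higher in P56-NSC. The lists below are read against the shares of all tested genes called higher and lower against AST, 37.1% and 37% in P56-NSC, 28.1% and 30.8% in A-iSC and 35.9% and 38.3% in P0-NSC. Of 18 nuclear genes for transcription and replication of the mitochondrial genome, 1 was higher and 5 were lower than in AST (5.56% and 27.8%, or 1 and 9 genes under total-read scaling), with a median log2 change of -0.13 against -0.00 for all genes. Tefm, the mitochondrial transcription elongation factor, was at 2.91 ± 0.40 FPKM against 7.76 ± 0.41 in AST (-1.17, limma adjusted p = 7.96e-06), and Tfb2m, which melts the promoter for the RNA polymerase, at 5.19 ± 0.22 against 9.08 ± 0.50 (-0.70, adjusted p = 2.82e-05). Polg2, the accessory subunit of the DNA polymerase, was the gene called higher (0.45, adjusted p = 0.000295). In A-iSC against AST 5 of the 18 were higher (27.8%, near the background) and 2 lower (11.1%, below it). The termination factor genes Mterf1a (0.66, adjusted p = 0.00163) and Mterf1b (0.80, adjusted p = 0.00887), near-identical copies whose counts are uncertain, were highest, and Top1mt, a mitochondrial topoisomerase, was lowest (-0.58, adjusted p = 0.000856).

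Genes that process, modify or degrade mitochondrial RNA were called lower more often than higher in P56-NSC and P0-NSC against AST. Of 28 tested, 20 were lower and 3 higher in P56-NSC, 18 lower and 4 higher in P0-NSC and 13 lower and 2 higher in A-iSC, the last falling to 4 lower and 3 higher under total-read scaling and to 4 lower and 4 higher with scaling by reads outside the mitochondrial genes. Trmt10c, a subunit of the RNase P that frees tRNAs, was at 2.78 ± 0.33 FPKM in P56-NSC and 9.37 ± 0.73 in AST (log2 change -1.46, limma adjusted p = 1.75e-07). Rexo2, which degrades short RNA fragments, was at 62.7 ± 13.8 FPKM in AST, 24.02 ± 2.91 in A-iSC, 18.8 ± 0.22 in P56-NSC and 6.87 ± 1.48 in P0-NSC (-1.33, -1.66 and -3.01 against AST, all with adjusted p of 2.11e-05 or less). Among those higher in P56-NSC were Angel2 (0.54, adjusted p = 0.00111) and the tRNA-modifying enzyme Trmu (0.36, adjusted p = 0.0262).

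Of 8 tested regulators of mitochondrial biogenesis, 2 were higher and 4 lower in P56-NSC than in AST, 25% and 50% against a background of 37.1% and 37%. Ppargc1a, the coactivator best known for inducing mitochondrial genes, was at 6.80 ± 0.10 FPKM in P56-NSC, 2.69 ± 0.42 in AST, 3.13 ± 0.68 in A-iSC and 1.80 ± 0.27 in P0-NSC (log2 change against AST 1.09, limma adjusted p = 7.48e-06). Ppara, a nuclear receptor of fatty acid use, was at 1.95 ± 0.30 against 0.110 ± 0.058 in AST (1.40, adjusted p = 5.60e-08). Pprc1, a relative of Ppargc1a, was lower (-1.32, adjusted p = 1.54e-07), as was Gabpb1, a subunit of a factor that binds promoters of respiratory genes (-0.82, adjusted p = 0.000412). In A-iSC against AST, Nrf1 was higher (0.27, adjusted p = 0.0396) and Esrra and Pprc1 lower (-0.57, adjusted p = 0.000331, and -0.56, adjusted p = 0.000502).

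The genes that translate mitochondrial mRNAs were mostly lower in both P56-NSC and P0-NSC than in AST. Of 77 tested mitochondrial ribosomal protein genes, 59 were lower and 1 higher in P56-NSC than in AST (median log2 change -0.76), and of 12 translation factor genes 9 were lower and 1 higher (-0.47). Mrps6, a small-subunit protein, was at 12.3 ± 0.67 FPKM against 160.6 ± 33.3 (-3.58, limma adjusted p = 4.19e-09), and Tsfm, an elongation factor, at 3.53 ± 0.25 against 11.6 ± 1.71 (-1.47, adjusted p = 3.07e-07). Mrpl48 (1.004, adjusted p = 1.26e-06) and Guf1 (0.57, adjusted p = 9.25e-05) were the genes called higher. In P0-NSC 60 of the 77 were lower and 1 higher than in AST (median -0.80). Of the 12 translation factor genes 9 were lower and 1 higher there (-0.76). In A-iSC 47 of the 77 were lower and 0 higher than in AST, or 28 and 3 when libraries were scaled by reads outside the mitochondrial genes. In P56-NSC against P0-NSC 21 were higher and 8 lower (27.3% and 10.4%, below the background of 35.3% and 33.9%). These counts turned to 4 higher and 51 lower under total-read scaling, where the median of all genes was -0.45 and 27.3% of all calls went upward.

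Nuclear subunits of the same complexes were called in both directions in P56-NSC against AST, at shares below the background. Of 80 tested genes for complexes I, III, IV and V, 12 were higher (15% against a background of 37.1%) and 22 lower (27.5% against 37%), with a median log2 change of -0.13. Of the 13 mitochondrial mRNAs 13 were higher, or 12 under total-read scaling, 10 without a level filter and 8 under quantile normalization. Quantile normalization gives every library the same top values, which limits changes of the most abundant mRNAs in advance. Without AST 2 and A-iSC 3 the counts of nuclear subunits were 33 higher and 21 lower (median 0.01), under quantile normalization 22 and 14, and under total-read scaling 6 and 40. Cox6a2 and Cox8b, isoforms best known from heart and muscle, were highest (2.47, limma adjusted p = 9.88e-07, and 2.05, adjusted p = 1.32e-05), and Cox6b2 and Ndufb6 lowest (-1.92, adjusted p = 5.18e-06, and -1.33, adjusted p = 1.12e-05). Against P0-NSC, 60 of the 80 were higher in P56-NSC (75%, background 35.3%) and 2 lower (2.5%, background 33.9%), with a median of 0.66. Of those higher, Cox8a led at 1296 ± 80.1 against 236.4 ± 8.996 FPKM (2.45, limma adjusted p = 1.53e-07). Under total-read scaling these counts were 15 higher and 11 lower (median 0.04, with -0.45 for all genes). In P0-NSC against AST 66 of the 80 were lower and 1 higher (median -0.78), or 33 and 5 under quantile normalization. In A-iSC against AST 46 of the 80 were lower and 2 higher (median -0.53), or 23 and 6 under quantile normalization, and in A-iSC the mitochondrial mRNAs had a median log2 change of 0.32 with 0 of 13 called.

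Markers of several cell types moved with the P56-NSC difference, the neuron and oligodendrocyte sums given above among them. Ependymal markers summed to 232.9 to 302.6 FPKM there against 41.7 to 84.8 elsewhere, and astrocyte markers to 2899 to 3142 against 100.7 to 2368. Choroid plexus markers summed to 1486 to 3168 FPKM in P56-NSC and 736.4 to 3796 in P0-NSC, but to 1.64 to 4.78 in AST and A-iSC. All 10 neuron markers and all 8 oligodendrocyte markers had group means of at least 1 FPKM there, against 2 and 1 in AST, 3 and 3 in A-iSC and 10 and 4 in P0-NSC. Mobp and Opalin were at 0 in all AST libraries and Opalin in all P0-NSC libraries. Red blood cell genes summed to 360.0 to 565.0 FPKM in P56-NSC and 162.6 to 337.8 in P0-NSC but 0 to 0.548 in AST and A-iSC, and microglial genes were highest in A-iSC (3553 to 4833 FPKM, against 162.4 to 946.0 elsewhere). Endothelial and fibroblast markers did not move this way. The endothelial sum was 4.59 to 5.34 FPKM in P56-NSC, 6.13 to 7.175 in AST, 2.52 to 3.56 in A-iSC and 75.8 to 79.7 in P0-NSC. The fibroblast sum was 24.7 to 26.5 in P56-NSC, 144.8 to 195.7 in AST, 8.996 to 10.8 in A-iSC and 84.5 to 95.6 in P0-NSC. The part of cell composition in the mitochondrial differences was not tested.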

How the data were processed

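RNA from 12 libraries in 4 groups of 3, made with the NEBNext Ultra kit, which does not mark strand, from 3 µg of RNA each per the labels' protocols, was read from the table of FPKM values that the authors deposited. Bowtie 0.12.2 and the genome builds mm8 and mm9 appear in the submitters' processing notes, while the coordinates matched GENCODE M21 (GRCm38) for 37 of 37 mitochondrial genes and 99.5% of 55154 shared identifiers. For the counting tool, the RNA selection and the scaling between libraries, nothing is stated in these sources. The total that the FPKM values imply was 0.744 to 1.22 times the reads recovered.

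Genes with a name and at least 1 FPKM in 3 libraries were tested with limma 3.58.1 (R 4.3.3) on log2(FPKM + 1), a scale that understates changes of low genes. The fit used all 12 libraries with a mean per group and a variance trend, and Benjamini-Hochberg adjustment over all genes. Calls were made at an adjusted p-value below 0.05. The procedure was run on simulated counts for A-iSC against AST, with the same dispersion for all genes and no length trend. That run cannot show how it behaves with the scatter and length trends of these libraries. Named were all mRNAs and rRNAs, the tRNAs that were highest, called or at 0, the nuclear copies with a mean of 1 FPKM or more in any group, and at most 2 higher and 2 lower genes per nuclear list. The members and lists were chosen with earlier results of these data known. Alternatives covered the pseudocount, filter, scaling, voom on recovered reads, left-out libraries, a replicate block and a length correction. Library numbers were not used to pair libraries in the main fit. In their deviations from group means, 3 of 18 same-numbered pairs correlated above 0.1 (median -0.04), against 7 of 36 other pairs (median 0.03). The 3 included AST 2 with A-iSC 2 (0.342) and AST 3 with A-iSC 3 (0.442). With 3 libraries per group and the length trends, this cannot show whether libraries were paired. Depth limits the precision of tRNAs and mt-Atp8, and limits of 3 reads cover counting error only.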

Additional observations from a re-analysis of the deposited data

How the results depend on the processing

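Of 120 gene results tested under 26 alternatives each, 2931 of 3120 values kept their direction and side of the threshold, 178 kept the direction and lost the call, 5 gained it and 6 reversed. The cause was not tested. Under quantile normalization, which by construction gives every library the same top values, mt-Nd2 in P56-NSC against P0-NSC turned to a log2 change of -0.15, and mt-Nd5 and mt-Nd6 in A-iSC against P56-NSC turned to 0.12 and 0.34. mt-Te in P0-NSC against AST turned to -0.065 with the length correction, also with the replicate block, and mt-Tr in A-iSC against AST turned to -0.061 among AST 1, AST 3 and A-iSC 3. The count of 4 members in A-iSC against AST was 7 with scaling by total reads, 7 with scaling by reads outside the mitochondrial genes, 11 under quantile normalization, 17 without AST 2 and A-iSC 3, 2 among AST 1, AST 3 and A-iSC 3, and 2 to 6 with a library left out. The count of 11 in P0-NSC against AST was 19 under quantile normalization, 5 with AST 2 as the AST library, and 8 to 13 with a library left out. The count of 11 in A-iSC against P0-NSC was 7 without a filter and 6 to 12 with a library left out. Without AST 2 and A-iSC 3 it was 14, with 8 higher and 6 lower. The direction in that comparison depended on the A-iSC libraries used. The members' median log2 change was 0.08 in the main fit, 0.38 with A-iSC 1 and A-iSC 2, and -0.57 with A-iSC 3 alone. With a library left out, the count was 28 to 32 in P56-NSC against AST, 29 to 33 in A-iSC against P56-NSC and 29 to 33 in P56-NSC against P0-NSC. The mean share of reads was 4.27% to 6.26% in A-iSC, 3.055% to 3.93% in AST, 4.317% to 5.258% in P0-NSC and 16.8% to 17.3% in P56-NSC with a library left out. In P56-NSC it was 13.8% over the 13 mRNAs alone and 13.8% without the rRNAs. With the replicate block the counts in the order A-iSC, P56-NSC and P0-NSC against AST, A-iSC against P56-NSC and P0-NSC, and P56-NSC against P0-NSC were 4, 32, 12, 30, 11 and 32. With the block and the length correction they were 3, 30, 14, 31, 12 and 33. The nuclear list counts under other scalings and without AST 2 and A-iSC 3 were chosen after seeing the data. Few reads limit mt-Atp8 and most tRNAs.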
